A study of Mus musculus with 8 samples.

Results

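The basement membrane genes and their integrin receptors were examined in mpkCCD cells, as 33 genes that were picked by symbol and joined by Ensembl identifier between the deposited TPM and expected count tables. TPM is a transcript level that takes gene length into account and that adds up to a fixed total per library, so that genes can be set side by side. They fell into 6 collagen IV chains, 8 laminin chains, 10 other matrix genes and 9 integrin subunits, out of 55414 genes in the tables. A gene was tested where 4 or more libraries had at least 10 counts of it, which held for 14772 genes and for 26 of the 33 members. The 7 members below that limit were Col4a6, Lama1, Lama4, Nid1, Nid2, Frem1 and Itga8.

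mpkCCD is a mouse kidney cell line with an SV40 large T antigen transgene that started from cortical collecting duct. All libraries came from 1 clone of it, chosen for its abundant Aqp2 and kept on a permeable filter. The first group of 4 libraries came from cells given tolvaptan, an antagonist of the vasopressin V2 receptor, together with dDAVP, an agonist selective for that receptor. The second group of 4 came from cells given dDAVP without tolvaptan, so both groups carried the agonist, and the labels give neither dose nor time. Nothing in the labels tells whether the libraries of a group were separate cultures, and the spread that the p-values rest on may therefore be technical.

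The basement membrane is the thin sheet of matrix on which an epithelium rests. Collagen IV chains form trimers that link into a network, and laminin trimers of an alpha, a beta and a gamma chain form a separate network at the cell surface. Nidogens, the proteoglycans perlecan (Hspg2) and agrin (Agrn) and collagen XVIII join or decorate these networks. Integrins, which are pairs of an alpha and a beta subunit, and dystroglycan (Dag1) hold the cell to them. In the kidney, nephronectin (Npnt) made by the ureteric bud, the embryonic source of the collecting duct, binds integrin alpha 8 beta 1 on the neighbouring mesenchyme during development.

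Total expected counts ran from 41179670 to 49720488 with tolvaptan plus dDAVP and from 46189118 to 56203831 with dDAVP alone. Genes with at least 1 count numbered 26690 and 27685 in tolvaptan replicates 1 and 2 and 26314 and 29246 in dDAVP replicates 1 and 2. In replicates 3 and 4 they numbered 23883 and 24195 with tolvaptan and 22203 and 23083 with dDAVP alone, so that replicates 1 and 2 stood apart from replicates 3 and 4 in both groups. The labels name no batch. Tolvaptan replicate 1 had the lowest mean correlation with the other libraries in log2 CPM, counts scaled to library size,, 0.9902, against 0.9921 to 0.9933 for the rest. Of the principal cell markers, Aqp2, the vasopressin-regulated water channel, measured 8204 to 10460 TPM with tolvaptan and 7771 to 9873 TPM with dDAVP alone, while Elf5 and Kcnj1, among the 12 listed, were under 1 TPM in every library. All 8 stromal and all 8 endothelial markers were under 1 TPM in every library. Of 8 podocyte markers, 6 were under 1 TPM in every library, and the list summed to 57.1 to 60.4 TPM with tolvaptan and 51.4 to 58.9 TPM with dDAVP alone, mostly from Synpo. The 8 intercalated cell markers summed to 589 to 612 TPM with tolvaptan and 579 to 703 TPM with dDAVP alone, mostly from Car2, and 5 of them were under 1 TPM in every library. The 8 proximal tubule markers summed to 9.13 to 11.85 TPM with tolvaptan and 8.77 to 10.51 TPM with dDAVP alone, mostly from Lrp2. No marker of any list passed the test described next.

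Expression of the 26 tested members differed little between the groups. None passed an adjusted p of 0.05 in either direction in edgeR's quasi-likelihood test, where 0.183% of all tested genes were called higher and 0.217% lower with tolvaptan, or 0.399% in all. The smallest adjusted p of a member was 0.257, for Agrn, and limma on log2(TPM + 1) also called 0. DESeq2 called 0 members as well, against 1.35% of all genes higher and 0.934% lower. At an unadjusted p under 0.05, 4 of the 26 (15.4%) were higher with tolvaptan, against 6.44% of all genes, and 0 were lower, against 4.74%. These 4 were Col4a2, Col4a3, Lamb2 and Agrn, all of them matrix genes. The count of 4 became 7 without tolvaptan replicate 3, 2 without tolvaptan replicate 1, and 1 without tolvaptan replicate 2, dDAVP replicate 1 or dDAVP replicate 3. The 95% interval of the log2 fold change lay within 0.5 of 0 on both sides for 24 of the 26 members, against 73.3% of all genes, and the exceptions were Hspg2 and Itga2. Intervals narrow with more counts, and 25 of the 26 members had at least 500 counts in every library. The genes tested also include ones with few counts, so these 2 shares compare unlike levels. The log2 fold change was above 0 in 20 of the 26 (76.9%), against 48.3% of all genes, with a median of 0.09, against -0.005 for all genes. In bulk RNA, fewer cells of a type and less RNA per cell cannot be told apart.

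**Figure D1:**
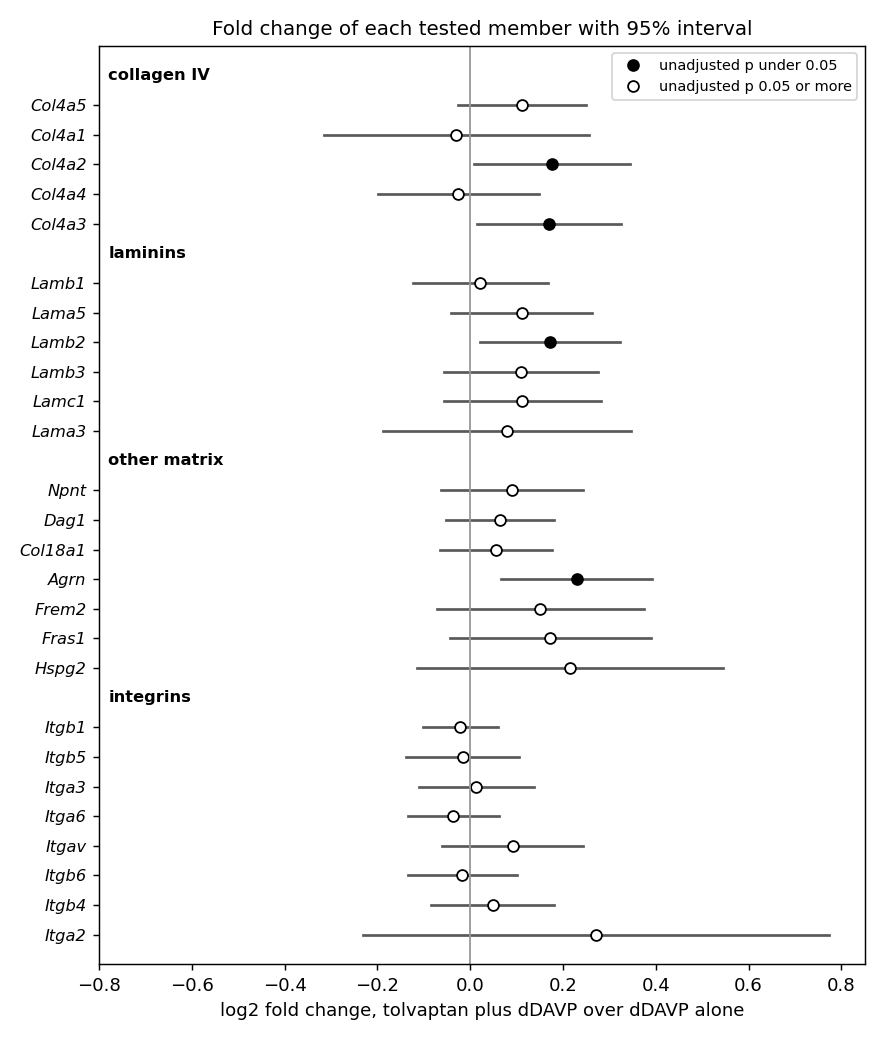
Log2 fold change of each tested member, tolvaptan plus dDAVP over dDAVP alone (x axis), with its 95% interval as a bar and the 26 genes in their 4 classes down the page. Filled points mark the 4 genes with an unadjusted p under 0.05, and every point lies between -0.04 and 0.27.

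Among the members, most of the fold changes above 0 were those of matrix genes. The 18 tested matrix members had a median log2 fold change of 0.11, with 16 above 0 and 2 below. The 8 tested integrin subunits had a median of -0.002, with 4 above 0 and 4 below. The contrast was not seen in the further genes read below. There 8 of 9 tested integrins were above 0 (median 0.07), as were 11 of 15 tested matrix genes (median 0.08). Whether matrix genes and integrins differed was not tested, since the genes of a library are not independent of each other.

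Of the collagen IV chains, 5 were measured well above 0 and Col4a6 was near 0. Col4a1 and Col4a2 encode the chains found in almost every basement membrane, Col4a3, Col4a4 and Col4a5 the chains of the glomerular network that is altered in Alport syndrome, and Col4a6 a chain that pairs with Col4a5 in other epithelia. In TPM the order was Col4a5, Col4a1, Col4a2, Col4a4, Col4a3 and Col4a6, and the ranges of neighbours did not overlap over the 8 libraries. Col4a5 (ENSMUSG00000031274) made up 55.4% ± 0.76 of summed collagen IV TPM with tolvaptan and 54.0% ± 1.6 with dDAVP alone (SD, n = 4 each). Its partner Col4a6 never exceeded 0.07 TPM.

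Col4a5 and Col4a6 lie head to head on the X chromosome, and their RefSeq start sites are 1343 bases apart in GRCm38.p6. The 250 bases upstream of each start are shown because the pair held the highest and the lowest collagen IV level. Capitals mark GGGCGG, the GC box (CCGCCC on the other strand), and CCAAT, each searched on both strands. The windows are chrX:141475169-141475418 on the plus strand for Col4a5 and chrX:141474077-141474326 on the minus strand for Col4a6.
Col4a5: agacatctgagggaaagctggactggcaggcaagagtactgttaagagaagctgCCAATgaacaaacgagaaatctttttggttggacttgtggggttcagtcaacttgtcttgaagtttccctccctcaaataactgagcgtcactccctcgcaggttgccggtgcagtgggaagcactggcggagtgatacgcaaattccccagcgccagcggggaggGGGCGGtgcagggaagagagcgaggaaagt
Col4a6: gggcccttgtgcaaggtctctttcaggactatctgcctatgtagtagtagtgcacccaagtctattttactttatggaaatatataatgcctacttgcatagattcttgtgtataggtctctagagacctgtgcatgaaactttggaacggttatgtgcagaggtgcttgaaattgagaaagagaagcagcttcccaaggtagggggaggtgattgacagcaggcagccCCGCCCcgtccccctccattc
The Col4a5 window held a CCAAT, a GC box and 10 CpG dinucleotides. The Col4a6 window held a GC box, no CCAAT and 3 CpG, and the median over 32851 RefSeq promoters was 6 CpG. These letters are a description of the windows and not a mapped site.

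Col4a5 measured 40.7, 43.3, 36.4 and 39.7 TPM in the tolvaptan libraries and 34.3, 40.5, 37.4 and 37.2 TPM in those with dDAVP alone, replicates 1 to 4 in each group. The groups overlapped, and the log2 fold change was 0.11 (95% interval -0.03 to 0.25, adjusted p = 0.563). Col4a6 had 10, 13, 0 and 3 counts with tolvaptan and 0, 1, 0 and 0 counts with dDAVP alone, sums of 26 and 1. The ratio scaled to library totals was 28.0, with an interval of 4.6 to 1150 that covers counting error only. Of the 4 tolvaptan libraries 1 had no count, so that the groups overlapped, and the level stayed close to the limit of detection in both. In an edgeR fit without the count limit, Col4a6 was the 1 member called, against 0.672% of 38115 genes.

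Col4a1 (ENSMUSG00000031502) measured 14.4, 18.7, 13.2 and 16.7 TPM with tolvaptan and 14.1, 20.4, 14.1 and 17.6 TPM with dDAVP alone. Its log2 fold change was -0.03 (95% interval -0.32 to 0.26, adjusted p = 0.958), with replicates 2 and 4 the highest in both groups. Col4a2 (ENSMUSG00000031503), which is transcribed from the opposite strand next to it, measured 8.17, 9.23, 7.49 and 8.39 TPM with tolvaptan and 7.22, 8.69, 8.09 and 6.76 TPM with dDAVP alone. The Col4a2 groups overlapped, and its log2 fold change was 0.18 (SE 0.08, 95% interval 0.01 to 0.35, adjusted p = 0.419). The log2 CPM difference for Col4a2 was 0.15 in replicates 1 and 2 and 0.21 in replicates 3 and 4. Exons of these 2 genes share 22 bases in GENCODE M21 on opposite strands, which this library type does not separate.

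Col4a3 (ENSMUSG00000079465) was the single member whose groups did not overlap, 3.85% of the 26, where 3.99% of all tested genes were higher and 3.77% lower without overlap. It measured 3.36, 3.28, 3.29 and 3.34 TPM with tolvaptan and 2.82, 3.17, 2.70 and 3.21 TPM with dDAVP alone, so the highest dDAVP library lay just under the lowest tolvaptan library. The log2 fold change was 0.17 (SE 0.07, 95% interval 0.01 to 0.33, adjusted p = 0.397), and the difference was 0.17 both in replicates 1 and 2 and in replicates 3 and 4. Its neighbour and partner Col4a4 (ENSMUSG00000067158) measured 5.33, 4.46, 5.63 and 3.95 TPM with tolvaptan and 4.23, 5.06, 4.99 and 4.71 TPM with dDAVP alone. The tolvaptan libraries of Col4a4 spread to both sides of the dDAVP range, with a log2 fold change of -0.03 (95% interval -0.20 to 0.15, adjusted p = 0.937). Col4a3 exons share 563 bases with the antisense gene C430014B12Rik, which averaged 1.41 TPM, so a part of its reads could belong to either. Summed collagen IV was 72.3 ± 5.29 TPM with tolvaptan and 69.3 ± 6.38 TPM with dDAVP alone.

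**Figure D2:**
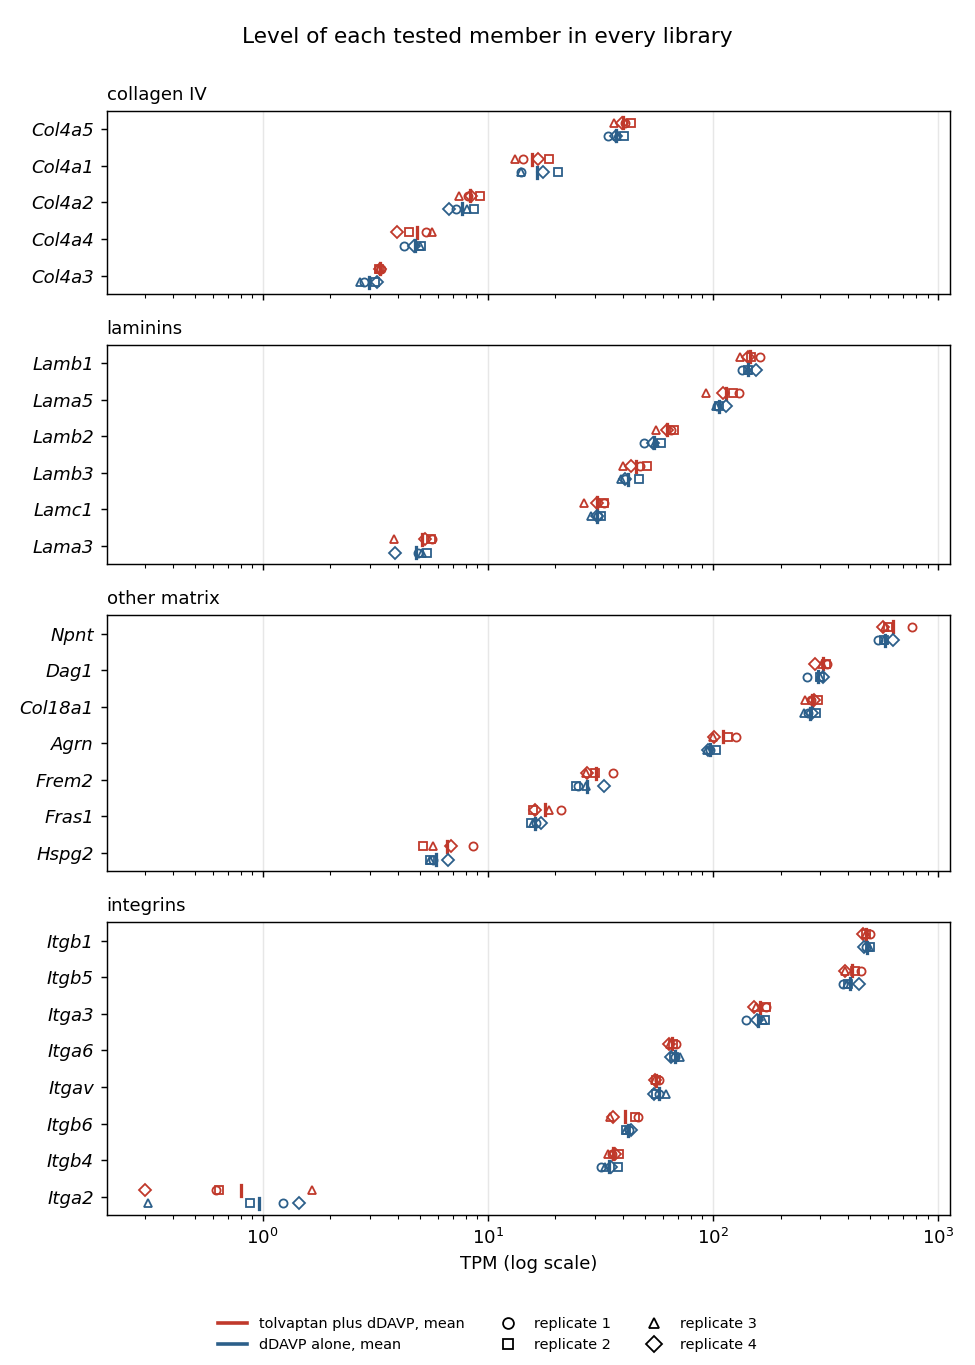
TPM on a log axis (x) of the 26 tested members in each of the 8 libraries, in 4 panels by class, with tolvaptan plus dDAVP in red above dDAVP alone in blue, symbols for replicates and a vertical tick for the group mean. Levels spanned from Itga2, near 1 TPM, to Npnt, at 545 to 767 TPM, and the groups overlapped for every gene in the plot but Col4a3.

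Laminin transcripts were dominated by the chains Lama5, Lamb1, Lamb2 and Lamc1, which assemble with each other in mature epithelial basement membranes. Lama5 (ENSMUSG00000015647) held 95.7% ± 0.25 of summed alpha chain TPM with tolvaptan and 95.6% ± 0.68 with dDAVP alone, and nearly all of the rest was Lama3, the alpha chain that joins Lamb3 in epithelial anchoring structures. Lama1, an early embryonic and proximal tubule chain, had no count in the 4 tolvaptan libraries and 0, 3, 0 and 1 counts with dDAVP alone. Its ratio scaled to library totals was 0, with an interval of 0 to 1.63 that covers counting error only. Lama4, a chain of vessels, had 1 to 3 counts in every library. All 6 tested laminins had a log2 fold change above 0, with a median of 0.11 and a range of 0.02 to 0.17.

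Lama5 measured 131, 123, 93.5 and 111 TPM with tolvaptan and 105, 106.1, 103 and 114 TPM with dDAVP alone. The tolvaptan libraries spread on both sides of the dDAVP range, with an SD of 16.2, against 5.02, and a log2 fold change of 0.11 (95% interval -0.04 to 0.26, adjusted p = 0.614). Lamb1 (ENSMUSG00000002900) measured 162, 147, 132 and 143 TPM with tolvaptan and 135, 143, 143 and 156 TPM with dDAVP alone. Its means were 146 ± 12.6 and 144 ± 8.65 TPM, with a log2 fold change of 0.02 (adjusted p = 0.938). Lamc1, the common gamma chain, measured 32.8, 32.8, 26.8 and 30.5 TPM with tolvaptan and 31.0, 31.9, 28.9 and 30.5 TPM with dDAVP alone. The groups overlapped for Lamc1 as well, with a log2 fold change of 0.11 (adjusted p = 0.647).

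Lamb2 (ENSMUSG00000052911), the beta chain that follows Lamb1 in maturing glomerular basement membrane, was the laminin with the smallest p. It measured 65.2, 67.3, 56.1 and 62.8 TPM with tolvaptan and 49.7, 59.0, 55.5 and 54.3 TPM with dDAVP alone, with only tolvaptan replicate 3 inside the dDAVP range. The log2 fold change was 0.17 (SE 0.07, 95% interval 0.02 to 0.32, adjusted p = 0.374). The difference in log2 CPM was 0.29 in replicates 1 and 2 and 0.04 in replicates 3 and 4. As a share of beta chain TPM, Lamb2 made up 23.7% to 25.4% with tolvaptan and 21.7% to 23.7% with dDAVP alone, and Lamb1 held 57.4% ± 1.5 and 59.9% ± 1.9. Lamb3 measured 47.5, 51.0, 40.0 and 43.2 TPM with tolvaptan and 40.6, 46.9, 39.2 and 40.8 TPM with dDAVP alone (log2 fold change 0.11, adjusted p = 0.652). Lama3 measured 5.66, 5.59, 3.83 and 5.27 TPM with tolvaptan and 4.92, 5.35, 5.11 and 3.89 TPM with dDAVP alone (log2 fold change 0.08, adjusted p = 0.858). Lamb3 therefore stood far above the alpha chain it is known to join, in both groups, with overlapping groups for each gene.

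**Figure D3:**
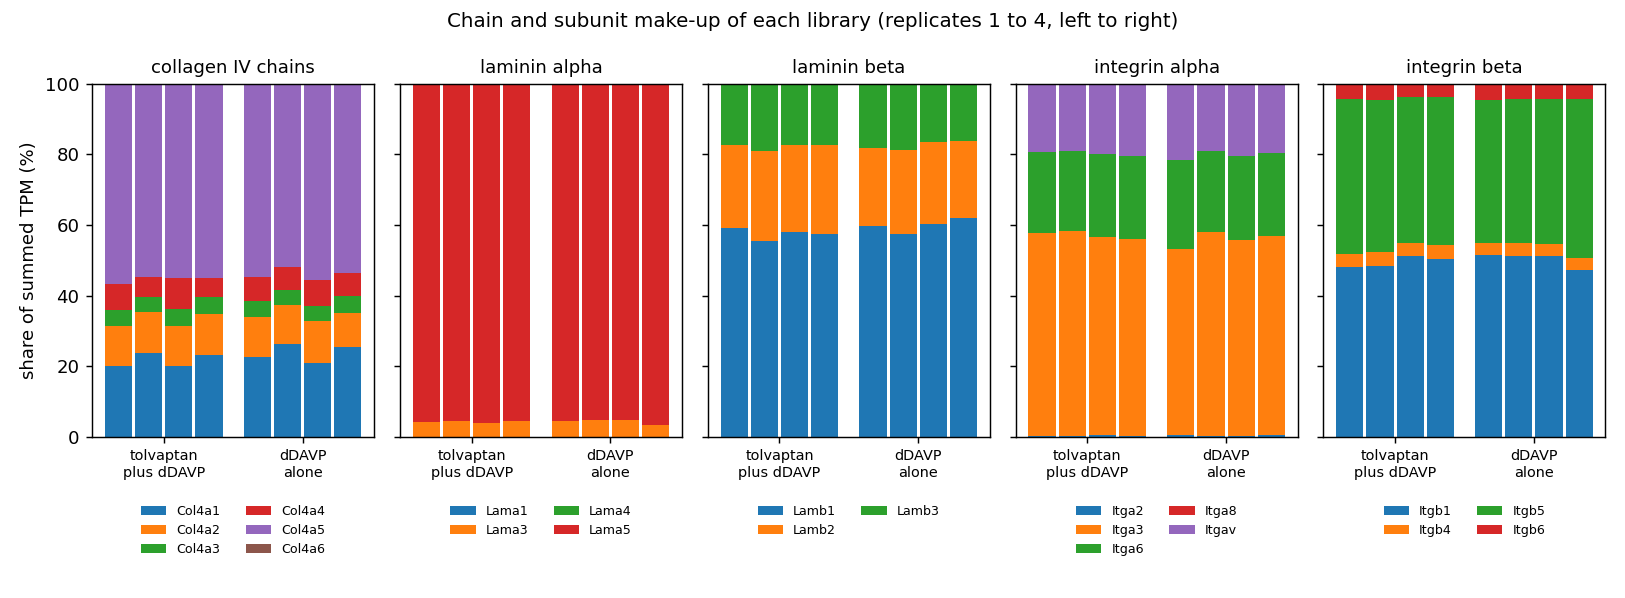
Share of summed TPM in percent (y axis) held by each chain or subunit among collagen IV chains, laminin alpha and beta chains and integrin alpha and beta subunits, as stacked bars, with the 4 tolvaptan plus dDAVP libraries left of the 4 with dDAVP alone. Lama5 held 95.7% of alpha chain TPM with tolvaptan and 95.6% with dDAVP alone, and the make-up of each set looked alike in the 8 libraries.

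Among the other matrix genes, Npnt (ENSMUSG00000040998) had the highest level of all 33 members in every library, while the receptor subunit it is known for was near 0. Npnt measured 767, 599.6, 583 and 573 TPM with tolvaptan and 545, 576, 574 and 629 TPM with dDAVP alone. Tolvaptan replicate 1 stood above all the others, which overlapped, and the log2 fold change was 0.09 (95% interval -0.06 to 0.24, adjusted p = 0.685), or 0.006 without that library. Itga8, the alpha subunit that binds nephronectin, had 3, 0, 2 and 2 counts with tolvaptan and 1, 1, 0 and 0 counts with dDAVP alone. Its level was never above 0.06 TPM.

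The 250 bases upstream of the first RefSeq start of Npnt and of the start of Itga8 are shown as the pair furthest apart in level among known partners. They are chr3:132950292-132950541 and chr2:12301945-12302194 in GRCm38.p6, both on the minus strand, with the same letters in capitals.
Npnt: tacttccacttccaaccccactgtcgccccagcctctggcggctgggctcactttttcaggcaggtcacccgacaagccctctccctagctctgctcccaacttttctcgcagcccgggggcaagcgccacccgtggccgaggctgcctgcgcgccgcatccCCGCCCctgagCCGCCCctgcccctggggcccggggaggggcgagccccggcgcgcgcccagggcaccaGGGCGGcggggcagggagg
Itga8: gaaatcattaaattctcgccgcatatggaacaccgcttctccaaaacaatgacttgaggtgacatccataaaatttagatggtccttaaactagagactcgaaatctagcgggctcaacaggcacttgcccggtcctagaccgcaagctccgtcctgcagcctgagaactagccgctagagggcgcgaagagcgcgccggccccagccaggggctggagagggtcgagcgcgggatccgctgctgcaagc
The Npnt window held 3 GC boxes and 21 CpG, and the Itga8 window none of the letters searched and 18 CpG, so the gene near 0 also had a CpG-rich start. The window of the other RefSeq start of Npnt, not shown, held 23 CpG and none of the letters searched. RefSeq gave promoters for 24 of the 33 members, 32 windows in all. The GC box was in 17 of these 32 (53.1%), against 32.7% of all promoters, and CCAAT in 10 (31.2%), against 33.8%. The cAMP response element TGACGTCA was in 0 of the 32 windows, against 1.55% of all promoters, and the TATA box TATAAA was in 0, against 12.4%. No match says only that these letters are not in these 250 bases.

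Agrn (ENSMUSG00000041936), a heparan sulphate proteoglycan that binds laminin and dystroglycan, had the smallest p of any member. It measured 127, 116, 101 and 101 TPM with tolvaptan and 97.1, 104, 94.5 and 95.5 TPM with dDAVP alone. The groups overlapped through dDAVP replicate 2, and the log2 fold change was 0.23 (SE 0.07, 95% interval 0.07 to 0.39, adjusted p = 0.257). The difference in log2 CPM was 0.34 in replicates 1 and 2 and 0.11 in replicates 3 and 4. Dag1, the precursor of dystroglycan, measured 323, 319, 305 and 285 TPM with tolvaptan and 262, 298, 299.5 and 309 TPM with dDAVP alone. The Dag1 groups overlapped, with a log2 fold change of 0.06 (95% interval -0.05 to 0.18, adjusted p = 0.705).

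Fras1, Frem1 and Frem2 encode matrix proteins that form a complex beneath embryonic epithelia, and transcripts of only Fras1 and Frem2 reached the tested range. Fras1 measured 21.2, 15.9, 18.7 and 16.3 TPM with tolvaptan and 16.3, 15.6, 15.9 and 17.3 TPM with dDAVP alone (log2 fold change 0.17, adjusted p = 0.567). Frem2 measured 36.1, 30.1, 27.3 and 27.7 TPM with tolvaptan and 25.2, 24.6, 27.5 and 32.8 TPM with dDAVP alone (log2 fold change 0.15, adjusted p = 0.638). Tolvaptan replicate 1 was the highest library for both, and the groups overlapped. Without that library the log2 fold change was 0.05 for Fras1 and 0.04 for Frem2. Frem1 had 4, 10, 3 and 0 counts with tolvaptan and 0, 2, 1 and 2 counts with dDAVP alone, sums of 17 and 5 and at most 0.09 TPM. The nidogens, which bridge laminin and collagen IV, were likewise near 0, with 0 to 7 counts of Nid1 and 0 to 2 of Nid2 in any library. Col18a1, the precursor of endostatin, measured 257 to 293 TPM with tolvaptan and 254 to 288 TPM with dDAVP alone, with an adjusted p of 0.765. Hspg2 measured 5.15 to 8.63 TPM with tolvaptan and 5.54 to 6.69 TPM with dDAVP alone, with a log2 fold change of 0.22 (adjusted p = 0.654), or 0.07 without tolvaptan replicate 1. The class had 7 of 7 tested genes above 0, with a median log2 fold change of 0.15. That median was 0.05 without tolvaptan replicate 1 and 0.23 without dDAVP replicate 4.

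Among the integrins, Itgb1, the beta subunit shared by most laminin and collagen receptors, and Itgb5, a partner of Itgav, were by far the most abundant. Itgb1 (ENSMUSG00000025809) measured 499.6, 482, 478 and 466 TPM with tolvaptan and 481, 498, 494.5 and 471 TPM with dDAVP alone. The ranges all but coincided, with a log2 fold change of -0.02 (95% interval -0.10 to 0.06, adjusted p = 0.879). Itgb5 (ENSMUSG00000022817) measured 455, 429.6, 386 and 385 TPM with tolvaptan and 381, 398, 395 and 448 TPM with dDAVP alone (log2 fold change -0.02, adjusted p = 0.943). Its high libraries were tolvaptan replicate 1 and dDAVP replicate 4, and the groups overlapped over most of their range.

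The laminin receptor subunit Itga3 held 56.9% ± 1.1 of alpha subunit TPM with tolvaptan and 55.6% ± 2.2 with dDAVP alone, and Itga6, which also binds laminins, 23.1% ± 0.44 and 23.9% ± 1.0. Itga3 measured 152 to 172 TPM with tolvaptan and 141 to 170.2 TPM with dDAVP alone (adjusted p = 0.958). Itga6 measured 68.6, 66.7, 64.8 and 64.1 TPM with tolvaptan and 67.9, 67.5, 71.6 and 65.4 TPM with dDAVP alone (log2 fold change -0.04, adjusted p = 0.812). Its hemidesmosome partner Itgb4 measured 35.8, 38.1, 34.1 and 36.8 TPM with tolvaptan and 31.9, 38.0, 33.1 and 35.5 TPM with dDAVP alone (log2 fold change 0.05, adjusted p = 0.819). Both genes overlapped between the groups, and Itga6 exceeded Itgb4 in every library. The collagen receptor subunit Itga2 was low, with 57 to 128 counts with tolvaptan and 60 to 99 with dDAVP alone, and its 95% interval was the widest of any member, -0.23 to 0.77.

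Itgav, Itgb5 and Itgb6 encode the subunits of receptors that bind the RGD sequence and that can release active TGF-beta. Itgav measured 57.7, 56.2, 55.4 and 55.4 TPM with tolvaptan and 57.8, 55.9, 62.0 and 54.7 TPM with dDAVP alone (log2 fold change 0.09, adjusted p = 0.677). Itgb6 measured 46.4, 45.0, 35.0 and 36.1 TPM with tolvaptan and 42.6, 41.1, 41.3 and 43.5 TPM with dDAVP alone (log2 fold change -0.02, adjusted p = 0.939). The Itgb6 tolvaptan libraries split around the dDAVP range, with replicates 1 and 2 above it and replicates 3 and 4 below. For Itgav the sign of the change was negative on log2(TPM + 1). Its exons share 634 bases with the antisense gene Gm13684, which averaged 0.46 TPM, against 56.9 TPM for Itgav. Summed integrin TPM was 1258 ± 66.2 with tolvaptan and 1254 ± 33.4 with dDAVP alone.

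For most members the difference between the groups was larger in replicates 1 and 2 than in replicates 3 and 4. This split rests on the number of genes detected, and the libraries were not shown to match across the groups in expression. In log2 CPM, deviations from the group mean in tolvaptan replicates 1 and 2 correlated best with those of dDAVP replicate 4 (0.0555 and 0.0685). In replicates 1 and 2, 24 of the 26 tested members (92.3%) had a higher mean log2 CPM with tolvaptan, with a median difference of 0.17. In replicates 3 and 4 the same held for 12 of 26 (46.2%), with a median of -0.03, against 48.6% of all genes in replicates 1 and 2 and 52.1% in replicates 3 and 4. The difference was larger in replicates 1 and 2 for 24 of the 26 members, against 49.1% of all tested genes, and the exceptions were Col4a1 and Col4a2. The other matrix genes were the class furthest apart, at a median of 0.34 with 7 of 7 above 0 in replicates 1 and 2, and -0.04 with 2 of 7 above 0 in replicates 3 and 4. Tolvaptan replicate 1 was the highest of the 8 libraries in log2 CPM for 14 of the 26 members (53.8%), against 21.6% of all genes, and for 12 of the 18 matrix members. For Hspg2, Frem2 and Npnt the 2 highest libraries were tolvaptan replicate 1 and dDAVP replicate 4, on different sides of the split. For Agrn and Lamb2 they were tolvaptan replicates 1 and 2. The part of single libraries in this pattern was not tested, and the genes of a library are not independent of each other.

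A fit with an interaction of treatment with replicates 1 and 2 against 3 and 4, chosen after these values were seen, tested that change of difference for each gene. It called 0 of 14772 genes at an adjusted p of 0.05 in edgeR. At an unadjusted p under 0.05, 4.44% of all genes had a larger difference in replicates 1 and 2 and 4.24% a smaller one. Of the 26 members, 9 were among those with a larger one and 0 among those with a smaller one. The 9 were Agrn, Dag1, Fras1, Frem2, Hspg2, Itga3, Itgb5, Lamb1 and Lamb2, and the smallest adjusted p of any member was 0.57. The part of library preparation in this pattern was not tested.

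**Figure D4:**
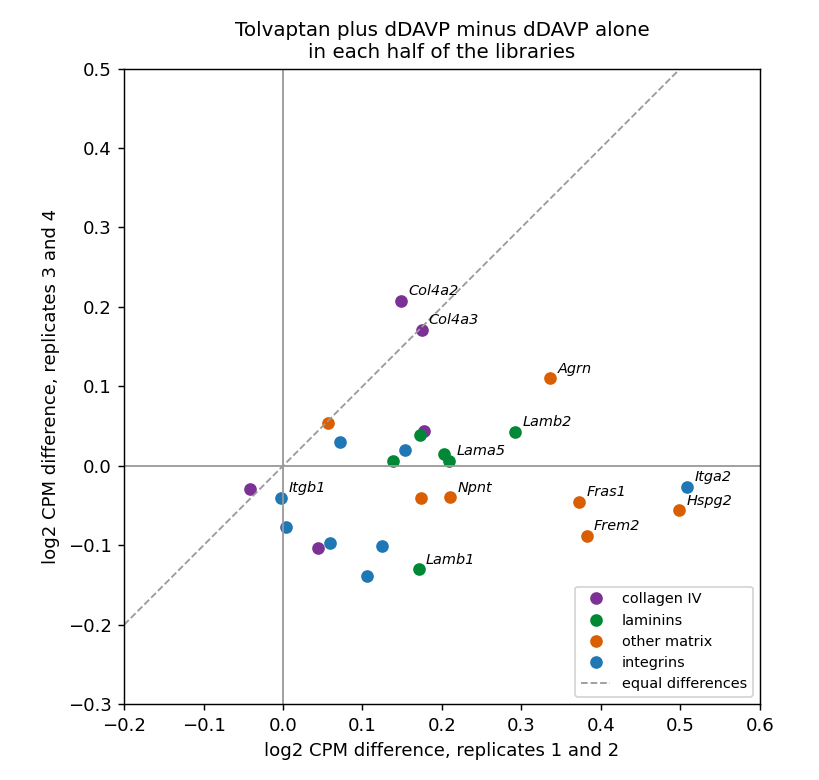
Difference in mean log2 CPM, tolvaptan plus dDAVP minus dDAVP alone, in replicates 1 and 2 (x axis) and in replicates 3 and 4 (y axis) for the 26 tested members, coloured by class, with a dashed line where both are equal. Of the points, 24 lie below the dashed line, and Agrn, Col4a2 and Col4a3 are the 3 genes with a difference above 0.1 on both axes.

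Genes that build, cross-link, remodel or bind the basement membrane were read from 6 further lists of 132 genes, of which 99 were tested. At an adjusted p of 0.05 in edgeR, 0 of the 99 were higher and 1 was lower, against 0.183% higher and 0.217% lower among all genes. At an unadjusted p under 0.05, 3 of the 99 were higher and 11 lower, against 6.44% higher and 4.74% lower among all genes. DESeq2 called 0 of the 99 higher and 4 lower, against 1.35% and 0.934% of all genes (Adamts1, Fermt2, Kank1 and P4ha1, of which the first 3 are named after their values were seen), and limma on log2(TPM + 1) called 0. In edgeR the lists with no call were 28 further matrix genes (15 tested, median log2 fold change 0.08), 16 further integrins (9 tested, 0.07), 17 remodelling genes (13 tested, -0.06), 29 adhesion complex genes (29 tested, 0.02) and 21 other receptors and dystroglycan glycosylation enzymes (16 tested, -0.005). The call came from the list of 21 collagen and basement membrane assembly genes, of which 17 were tested, with a median of -0.03.

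That gene was P4ha1 (ENSMUSG00000019916), a catalytic subunit of the prolyl 4-hydroxylase that stabilises collagen triple helices. It measured 37.2, 37.6, 36.4 and 36.5 TPM with tolvaptan and 48.1, 47.7, 42.2 and 48.9 TPM with dDAVP alone, with no overlap. P4ha1 fell by 0.35 on the log2 scale (SE 0.06, 95% interval -0.47 to -0.22, adjusted p = 0.0249), and the difference was -0.37 in replicates 1 and 2 and -0.32 in replicates 3 and 4. The call was lost on log2(TPM + 1), at an adjusted p of 0.0613 in limma, and without any 1 of 6 of the 8 libraries, at 0.0613 to 0.122, while the direction held in each. It held without tolvaptan replicate 1 (0.0303) and without dDAVP replicate 3 (0.0188).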

How the data were processed

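RNA from 8 mpkCCD libraries was analysed, 4 with tolvaptan plus dDAVP and 4 with dDAVP alone, grouped by the sample titles. Per the labels, SMARTer cDNA and Nextera XT libraries were sequenced paired-end, without strand. The authors aligned reads with STAR to an Ensembl genome and deposited RSEM expected counts without normalization, and TPM values scaled to a like sum in each library. The authors' deposited differential expression and term enrichment tables were not used.

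Expected counts were rounded to whole numbers. After a limit of 10 counts in 4 libraries, genes were fitted in R 4.3.3 with the two-sided quasi-likelihood test of edgeR 4.0.16, with TMM factors, no covariate and Benjamini-Hochberg adjustment over all of them. The F statistic and fold change gave each standard error. Differences between replicates 1 and 2 and replicates 3 and 4 are of log2 CPM with a prior count of 2. Intervals on few counts are exact and cover counting error only. The study used DESeq2; here DESeq2 1.42.0, limma 3.58.1 on log2(TPM + 1) and log2(TPM + 0.1), RLE and upper-quartile factors, no filter, the replicate number as a block, a term for replicates 1 and 2, a maximum TPM above 10 and leaving out each library were alternatives. Counts were simulated for 14772 genes in this comparison. There edgeR recovered 44% of genes changed by 1.25-fold and 90% of those changed by 1.5-fold, while 6.18% of the genes it called had not been changed. The changed genes were drawn only from those with higher mean counts. Each gene was simulated independently, without shifts shared by the genes of a library, so recovery may differ for genes with few counts or with such shifts.

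The members and lists were chosen with earlier results of these data known. By rule, all 8 values are given for members with an unadjusted p under 0.05, the 2 highest of each class and known partner sets; from other lists, genes with an adjusted p under 0.05. Exon overlaps came from GENCODE M21 and sequences from RefSeq, both on GRCm38. The deposited tables use another annotation, so gene coordinates are not given. No pair of libraries in a group agreed within sampling noise.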

Additional observations from a re-analysis of the deposited data

Results flagged for a closer look

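In 62 sets of 4 values tested for a library far from the other 3, the gap passed Dixon's 95% critical value in 3, and chance gives about 1 in 20. Npnt measured 766.75 TPM in tolvaptan replicate 1, and the nearest library of its group had 599.6. Hspg2 measured 6.69 TPM in dDAVP replicate 4, and the nearest had 5.72. Summed integrin TPM was 1204.1 in dDAVP replicate 1, and the nearest had 1264.9.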

How the results depend on the processing

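No tested member passed an adjusted p of 0.05 in any alternative, and the smallest was 0.0679, for Agrn in edgeR without a filter. Without that filter 1 member that had not been tested passed, Col4a6, at a log2 fold change of 4.23 on 26 and 1 counts. Of 436 member fold changes under alternatives, 410 kept their direction and 26 changed sign, in 9 of the 26 members. On log2(TPM + 1) in limma the values that changed sign were 0.0163 for Col4a4, -0.138 for Itga2, -0.0331 for Itgav and 0.0289 for Itgb5. On log2(TPM + 0.1) they were 0.0178 for Col4a4, -0.286 for Itga2, -0.0336 for Itgav and 0.0290 for Itgb5, and without a filter Itga3 was at -0.00291. Leaving out each library gave -0.161 to 0.0533 for Col4a1, -0.0684 to 0.0386 for Col4a4, -0.000511 to 0.195 for Lama3, -0.0327 to 0.0733 for Lamb1, -0.0246 to 0.0438 for Itga3, -0.0428 to 0.0281 for Itgb5 and -0.0521 to 0.0152 for Itgb6. Leaving out each library gave class medians of 0.06 (without tolvaptan replicate 2) to 0.15 for collagen IV, 0.06 (without tolvaptan replicate 2; 0.07 without replicate 1) to 0.18 (without tolvaptan replicate 3) for laminins and -0.02 to 0.03 for integrins. With a maximum TPM above 10 the collagen IV median was 0.05.

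Of all genes, 59 were called in edgeR (54.2% of them lower), 337 in DESeq2 (40.9% lower), 22 on log2(TPM + 1) (86.4% lower), 256 without a filter (50.0% lower) and 20 to 82 with 1 library left out. With the replicate number as a block, 17 genes were called (82.4% lower), and the P4ha1 call was lost (adjusted p = 0.0996). Deviations of same-numbered libraries correlated between -0.0126 and 0.157, so the numbers were not taken to pair samples, and only replicate 3 correlated best with its own number. Members counted at an unadjusted p under 0.05 numbered 2 on log2(TPM + 1) and 2 with a maximum TPM above 10. The cause of these shifts was not tested. The 7 members near 0 had 0 to 13 counts in any library, too few for the test.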
